A study of Homo sapiens with 30 samples.

Results

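The proteins described here take part in removing introns from human transcripts and in the choice of exons that are kept. They were followed in TMD8 and U2932, cell lines of human diffuse large B cell lymphoma, activated B cell-like type. The members were all detected probes whose gene symbol starts with SRSF, HNRNP, SF3A, SF3B, U2AF or SNRP, with 6 pseudogene probes left out. Of 108 such probes for 60 genes, 102 probes for 59 genes were detected, out of 14887 genes with a detected probe. The probes were among 30373 detected probes of 47231 on the array. They comprised 14 SRSF, 51 HNRNP, 12 SF3A or SF3B, 6 U2AF and 19 SNRP probes. Detected means a signal above the array's own background at p under 0.05 on at least 3 arrays of a line, counted without regard to treatment. By that rule 100 members were tested in each line. The 6 probes never kept belong to HNRNPA1L2, HNRNPCL1, SNRPE, SNRPN, SRSF10 and SRSF12. SRSF12 was the gene left with no member, since its only probe was above background on 0 arrays.

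The compounds were YK-S and YK-R, enantiomers of an inhibitor of ETS transcription factors, of which S is known as the active form. Each of 10 groups had 3 arrays. In TMD8 they were YK-S for 8 h, YK-R for 8 h, YK-S for 4 h and YK-R for 4 h. In U2932 they were YK-S, YK-R and the solvent DMSO, each for 8 h and for 4 h. TMD8 had no DMSO arrays, so there the forms were set against each other. The labels give no dose. They do not say that replicates were grown separately, and p-values then measure only the spread between arrays, which may be technical.

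Introns are removed by the spliceosome, which is built from small nuclear RNAs wrapped in proteins. The SNRP genes encode those proteins, including the Sm ring shared by several of the particles and the U1 and U2 proteins. U2AF reads the end of the intron, and the SF3A and SF3B complexes then hold the U2 particle on the branch point. SR proteins, encoded by SRSF genes, mostly promote the use of an exon, whereas hnRNP proteins often repress it. The inhibitor was developed to separate an ETS fusion protein from RNA helicase A, an enzyme that also takes part in RNA processing. SF3B1, U2AF1 and SRSF2 are known as genes mutated in blood cancers.

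The arrays of the lines were unlike in quality. Mean signal was 419.6 to 494.1 on the 12 TMD8 arrays and 85.41 to 340.9 on the 18 U2932 arrays. Between 47.7% and 57.6% of probes were detected on TMD8 arrays, and between 24.8% and 50.4% on U2932 arrays. On 8 U2932 arrays the mean signal was under 200, a limit known from earlier results of these data. With the signal table's names, these dim arrays included all 3 of YK-R at 4 h, all 3 of DMSO at 4 h, 1 of YK-S at 8 h and 1 of YK-S at 4 h. Of the B cell markers with a probe, 6 of 7 were detected on every TMD8 array and 5 of 7 on every U2932 array. PAX5, a B cell identity factor, was detected on 0 U2932 arrays. Of the T cell genes, CD3D and TRAT1 were detected on 0 TMD8 arrays, and CD3G on 0 U2932 arrays. Each of them was above background on some arrays of the other line. Single markers of other cell types were above background throughout, namely CD14, COL1A1 and DCN in TMD8, and CD247 and EPCAM in U2932. The summed signal of the B cell list was 30121 to 42345 in TMD8 and 2969 to 23506 in U2932. That of the T cell list was 1046 to 1187 in TMD8 and 652 to 1541 in U2932, and that of the myeloid list 1021 to 1195 in TMD8 and 637 to 1023 in U2932. For the stromal and epithelial list it was 1583 to 1896 in TMD8 and 1047 to 2843 in U2932. The part of these markers and of brightness in the differences below was not tested.

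The deposited signal table and the deposited log2 table did not give U2932 arrays the same sample names. All 12 TMD8 columns matched their own name across the tables, whereas 0 of 18 U2932 columns did. Of these 18, 5 matched an array of the same group and 13 an array of another group, each with a rank correlation of at least 0.9999964. The correlation with the column of the same name was only 0.597 to 0.9. The files do not settle which table is named correctly. Each U2932 treatment result is therefore given under both, and its groups are those of the table named. With 1 set of values for both, the members' median SD within U2932 groups was 0.274 under the log2 table's names and 0.281 under the signal table's names. Comparisons within TMD8, and between the lines over all arrays, do not depend on this.

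In TMD8 no splicing factor differed between YK-S and YK-R past the threshold at either time. With limma, 0 of 100 members were called at 8 h at an adjusted p under 0.05, against 0.0382% of all 28759 tested probes (11 probes). At 4 h the count was 0 of 100, against 0% of all tested probes. At an unadjusted p under 0.05, 2 members passed at 8 h (6.49% of all probes) and 1 at 4 h (2.12% of all probes). The members' median difference, YK-S minus YK-R, was 0.025 on the log2 scale at 8 h and 0.019 at 4 h, beside 0.011 and 0.001 for all probes. With arrays scaled to their medians the 8 h medians were 0.246 for members and 0.143 for all probes, still with 0 calls. Differences ran from -0.58 to 0.69 at 8 h and from -0.47 to 0.43 at 4 h. The 95% interval lay within a 2-fold change in either direction for 95 of 100 members at 8 h and for 99 of 100 at 4 h. The median half-width of that interval was 0.37 at each time.

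**Figure D1:**
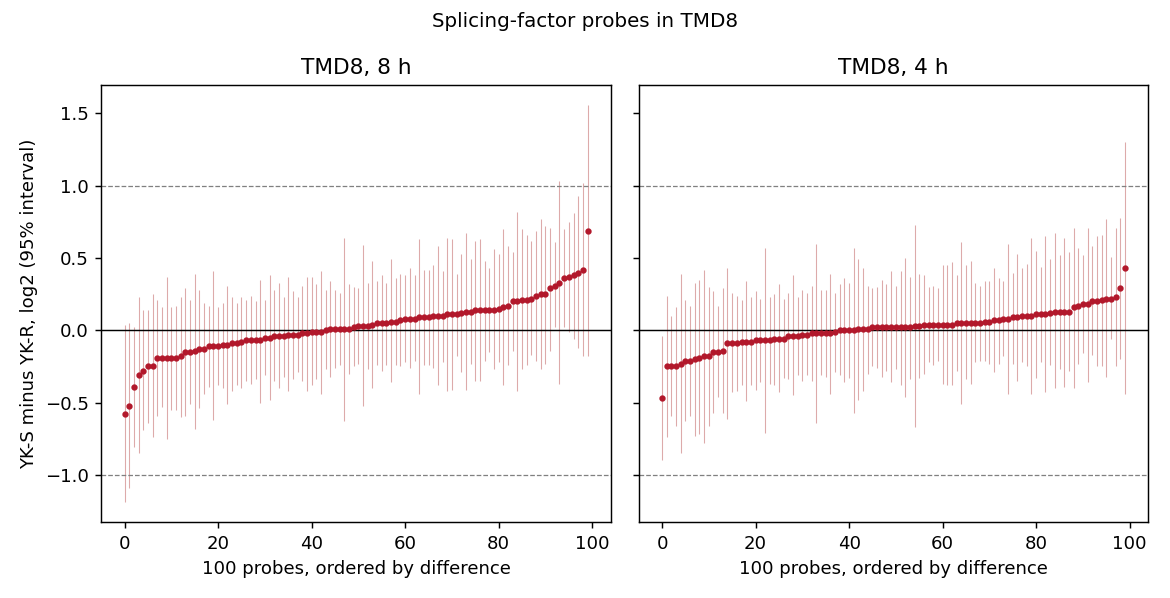
Difference between YK-S and YK-R in TMD8 for 100 splicing-factor probes, in log2 units (y axis), ordered by size (x axis), at 8 h (left) and 4 h (right). Points are estimates from 3 arrays a group, vertical lines are 95% intervals, and dashed lines mark a 2-fold change. Intervals of 95 probes at 8 h and 99 at 4 h stayed inside the dashed lines.

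The lowest p-values at 8 h belonged to a single probe of SF3B1 and to the SF3A1 probe, neither of them called. SF3B1 encodes the largest SF3B subunit, which clamps the branch point. Its probe ILMN_1677165 read 5.75, 5.96 and 5.73 with YK-S at 8 h, against 5.6, 5.52 and 5.25 with YK-R. The YK-S arrays were all above the YK-R arrays, and the difference was 0.36 (95% interval 0.02 to 0.7, limma adjusted p = 0.73). The other SF3B1 probes did not share it. ILMN_1706075, the brightest, differed by -0.07 (interval -0.37 to 0.24) and ILMN_1674780 by -0.01 (interval -0.38 to 0.37). SF3A1, another U2 protein, read 4.81, 4.59 and 4.73 with YK-S at 8 h, against 4.43, 4.27 and 4.49 with YK-R. The difference was 0.31 (interval 0.02 to 0.61, adjusted p = 0.73), at levels near background, as this probe was detected on 3 of 12 TMD8 arrays. Of the U2AF pair, which reads the intron's end, U2AF1 differed by 0.14 and 0.25 at 8 h on its 2 probes and U2AF2 by 0.01 and -0.28 on its 2 probes.

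Among hnRNP proteins, HNRNPK, a binder of C-rich RNA and DNA, gave the lowest p at 4 h. Its probe ILMN_3260017 read 5.38, 5.72 and 5.38 with YK-S at 4 h, against 6.26, 5.75 and 5.89 with YK-R. All YK-S values lay below all YK-R values, by a narrow margin, and the difference was -0.47 (interval -0.9 to -0.04, adjusted p = 1). At 8 h the same probe had the opposite sign, 0.38 (interval -0.06 to 0.81). The other 3 HNRNPK probes lay between -0.07 and 0.05 at 4 h and between -0.25 and 0.03 at 8 h. A single probe of HNRNPR had the lowest estimate among the members at 8 h. This probe, ILMN_3265895, read 6.81, 6.88 and 7.17 with YK-S, against 7.44, 6.91 and 8.24 with YK-R (difference -0.58, interval -1.19 to 0.04, adjusted p = 0.81). Its SD over the TMD8 arrays was 0.48, against 0.11 and 0.12 for the other HNRNPR probes. HNRNPA1, the classic exon silencer, differed by -0.15 and 0.09 at 8 h on its 2 probes. HNRNPA2B1, known for binding exported RNAs, stayed between -0.18 and 0.13 at 8 h on its 4 probes, none of them called.

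None of the SR protein probes was called. SRSF1, the founding member of the family, differed by 0.12 at 8 h (interval -0.29 to 0.53) and by 0.04 at 4 h (interval -0.37 to 0.45). SRSF2, which binds exonic enhancers, differed by -0.07 at 8 h (interval -0.35 to 0.21) and by 0.02 at 4 h (interval -0.26 to 0.3). SRSF3 differed by 0.14 and 0.2 at 8 h on its 2 probes, and SRSF7 by -0.15. The SR probe with the lowest p at 8 h was that of SRSF8, at -0.39 (interval -0.81 to 0.02, adjusted p = 0.8). Among snRNP proteins, SNRPB, which encodes the common SmB proteins, differed by 0.16 and -0.13 at 8 h on its 2 probes. SNRPD3, another member of the Sm ring, had the second-lowest p at 4 h with 0.22 (interval -0.06 to 0.51, adjusted p = 1). The remaining probes among the 5 with the lowest p were HNRNPCL1 at 8 h (0.37), and SF3B3 (0.29), SNRPD2 (-0.25) and HNRNPA1L2 (-0.25) at 4 h, none of them called.

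The comparison of times within TMD8 also gave no called member. For 8 h minus 4 h, 0 of 100 members were called in YK-R cells (0.0522% of all probes) and 0 of 100 in YK-S cells (0.0278% of all probes). At an unadjusted p under 0.05 the counts were 5 in YK-R cells (8.78% of all probes) and 2 in YK-S cells (4.95% of all probes). In YK-R cells SF3B1 probe ILMN_1677165 read 5.6, 5.52 and 5.25 at 8 h, against 5.84, 6.03 and 5.97 at 4 h. The 8 h values were all lower, and the difference was -0.5 (SE 0.16, limma adjusted p = 0.37). SF3B3, the SF3B scaffold partner, read 8.7, 8.57 and 9.11 at 8 h, against 7.85, 8.32 and 8.26 at 4 h (difference 0.65, SE 0.23, adjusted p = 0.43). In YK-S cells the lowest p belonged to SNRPA, the U1 protein, at -0.37 (SE 0.17, adjusted p = 1). The change over time was compared between the forms directly, and 0 of 100 members were called (0% of all probes). The change with the lowest p was 0.85 for HNRNPK probe ILMN_3260017 (interval 0.24 to 1.46, adjusted p = 1).

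Because the compound is aimed at ETS factors, the members' promoters were searched for the ETS core sequence. RefSeq promoter windows of GRCh38.p14, from 250 bases before to 50 after a start site, were matched by symbol for 54 of 59 member genes (77 windows). The letters CCGGAAG, on either strand, were in 27.3% of member windows, in 10.3% of all 35116 windows and in 12.8% of windows of protein-coding genes. The longer form CCGGAAGT, which contains it, was in 16.9% of member windows and 4.14% of all windows. GAGGAAG, a core of the SPI1 and SPIB type, was in 16.9% of member windows and 13.6% of all windows. Windows of 3 genes that recur below are printed 5′ to 3′ on the gene's own strand, with CCGGAAG or its reverse complement in capitals. SF3A3 (chr1:37989973-37990272, minus strand) holds 2 matches, SNRPB (chr20:2470740-2471039, minus strand) 1, and HNRNPLL (chr2:38602879-38603178, minus strand) 1.
SF3A3: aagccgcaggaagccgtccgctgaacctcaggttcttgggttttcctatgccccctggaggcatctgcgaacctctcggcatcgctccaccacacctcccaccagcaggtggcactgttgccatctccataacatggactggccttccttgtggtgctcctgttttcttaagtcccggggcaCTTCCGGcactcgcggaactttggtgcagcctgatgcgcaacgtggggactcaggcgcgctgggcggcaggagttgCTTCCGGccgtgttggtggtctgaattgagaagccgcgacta
SNRPB: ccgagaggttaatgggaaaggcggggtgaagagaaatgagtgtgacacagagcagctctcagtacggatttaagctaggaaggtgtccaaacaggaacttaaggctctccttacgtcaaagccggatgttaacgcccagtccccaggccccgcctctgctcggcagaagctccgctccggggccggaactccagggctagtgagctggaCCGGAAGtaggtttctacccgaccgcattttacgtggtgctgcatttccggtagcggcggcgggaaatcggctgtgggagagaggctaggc
HNRNPLL: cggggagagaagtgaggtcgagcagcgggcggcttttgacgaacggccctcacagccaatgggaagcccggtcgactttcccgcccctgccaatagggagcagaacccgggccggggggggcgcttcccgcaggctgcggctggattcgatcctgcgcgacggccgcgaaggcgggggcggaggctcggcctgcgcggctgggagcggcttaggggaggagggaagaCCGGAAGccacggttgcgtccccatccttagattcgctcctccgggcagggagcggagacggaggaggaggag
The matches begin 68 bases before and at base 9 after the start in SF3A3, 41 bases before it in SNRPB and 23 bases before it in HNRNPLL. A match is a description of the letters and not a site of binding. In TMD8 at 8 h the 27 probes of genes with CCGGAAG had a median YK-S minus YK-R of 0.03 (range -0.31 to 0.42). The 67 probes of genes with a window but without it had a median of 0.02 (range -0.58 to 0.69). The medians at 4 h were 0.04 and 0.02.

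In U2932, YK-R minus DMSO at 4 h gave called splicing factors with each table's values and names, and the tables of names gave different ones. With the signal table's names limma called 2 of 100 members, 1 higher and 1 lower, beside 1.27% of all 26193 tested probes (0.68% higher, 0.588% lower). HNRNPDL encodes an hnRNP D-like protein that binds AU-rich RNA. Its probe ILMN_1730572 read 7.51, 7.74 and 7.68 with YK-R, against 6.97, 6.83 and 6.81 with DMSO. The groups did not overlap, and the probe rose by 0.78 (SE 0.18, adjusted p = 0.045). The other HNRNPDL probe differed by 0.14. HNRNPUL1, an hnRNP U-like protein, read 8.88, 8.59 and 8.57 on probe ILMN_1690268 with YK-R, against 9.8, 10.2 and 9.09 with DMSO. It fell by 1.01 (SE 0.23, adjusted p = 0.046), while its other 3 probes lay between -0.62 and -0.03 and were not called. Next by p were 2 branch-point proteins, SF3B4 at -1.5 (SE 0.39, adjusted p = 0.056) and SF3A2 at -1.68 (SE 0.44, adjusted p = 0.057), and HNRNPH2 at 0.94 (adjusted p = 0.062). All 6 arrays behind these values were dim, so no fit without dim arrays could be made. Without 1 DMSO array, replicate 3, the count was 31, and without any 1 of the YK-R arrays or DMSO replicate 2 it was 0. Over all 26193 probes, leaving out 1 array gave 0 to 6884 calls.

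With the log2 table's own values and names limma called 4 of 100 members in the same comparison, 1 higher and 3 lower, beside 1.37% of all tested probes (0.378% higher, 0.989% lower). SNRPN encodes SmN, a tissue-restricted form of SmB made from an imprinted gene on chromosome 15. Its probe ILMN_1656537 read 7.21, 6.6 and 7.07 with YK-R at 4 h, against 8.24, 7.97 and 7.74 with DMSO. It fell by 1.02 (SE 0.13, adjusted p = 0.013), and the groups did not overlap. YK-S at 4 h gave 7.25, 7.34 and 7.3, also below DMSO (difference -0.68, SE 0.13, adjusted p = 0.09). The 9 values at 8 h lay between 7.61 and 7.84 in all groups. The other SNRPN probes differed by -0.43 and -0.31 for YK-R minus DMSO at 4 h and were not called.

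U2AF2, the large U2AF subunit, read 10.8, 10.94 and 10.71 on probe ILMN_1768930 with YK-R at 4 h, against 10.25, 10.16 and 10.25 with DMSO. It rose by 0.6 (SE 0.09, adjusted p = 0.017), while the second U2AF2 probe differed by -0.43 and was not called. HNRNPM, a regulator of exon skipping, read 10.09, 9.75 and 10.1 on probe ILMN_3192791 with YK-R, against 10.79, 10.47 and 10.51 with DMSO. It fell by 0.61 (SE 0.11, adjusted p = 0.019), and the other 3 HNRNPM probes differed by -0.39 to -0.29 without a call. SF3B2, a subunit of the SF3B complex, read 8.7, 8.81 and 8.81 with YK-R, against 9.2, 9.24 and 9.2 with DMSO. It fell by 0.44 (SE 0.1, adjusted p = 0.048). HNRNPCL3 came next, at 0.69 (adjusted p = 0.06). Without DMSO replicate 1 none of the 4 stayed called (adjusted p 0.082 to 0.2). Under these names 2 YK-R and 2 DMSO arrays at 4 h were dim, so too few are left without them for a count. Each of these 3 genes and SNRPN showed YK-R values clear of the DMSO values.

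The sets of called members were disjoint. With the signal table's names the 4 probes differed by 0.15 (SNRPN), 0.03 (U2AF2), -0.08 (HNRNPM) and -0.25 (SF3B2). With the log2 table's names HNRNPDL differed by 0.14 and HNRNPUL1 by -0.11 on the probes named above. Of 100 members, 50 had the same sign for YK-R minus DMSO at 4 h under both. Values and names were also taken apart. The signal values fitted with the log2 table's names gave 1 call, SNRPN at -1.52 (adjusted p = 0.037). The log2 values fitted with the signal table's names gave 0 calls in limma, with 33 members at an unadjusted p under 0.05.

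**Figure D2:**
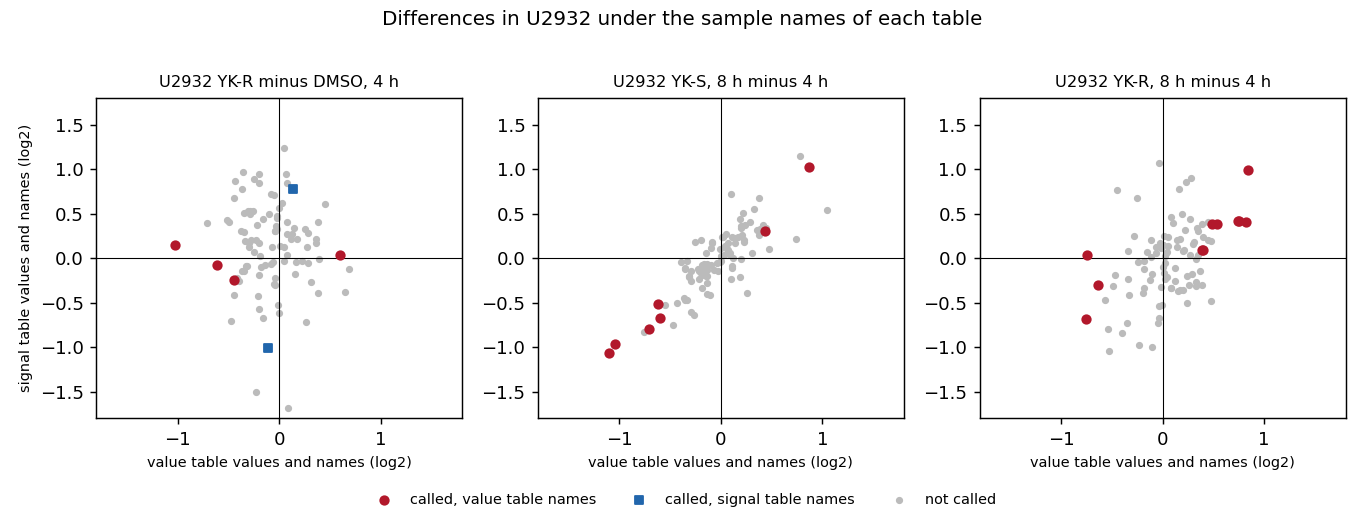
Differences of 100 splicing-factor probes in U2932, in log2 units, with the signal table's values and names (y axis) against the log2 value table's values and names (x axis). The panels show YK-R minus DMSO at 4 h, YK-S at 8 h minus 4 h and YK-R at 8 h minus 4 h. Red circles are called with the value table's names (4, 7 and 11 probes), blue squares with the signal table's names (2, 0 and 0 probes).

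For the other treatment comparisons in U2932, limma called 0 of 100 members with each table's values and names, at an adjusted p under 0.05, beside 0% of all probes. For YK-S minus DMSO at 4 h this rests on the arrays used. With the signal table's names 24 members were called without DMSO replicate 3, 2 without DMSO replicate 1 and 5 with all 30 arrays in one fit. Leaving out 1 array gave 0 to 4051 calls over all 26193 probes. For YK-S minus DMSO at 8 h, 4 members passed an unadjusted p under 0.05 with the signal table's names (2.16% of all probes) and 2 with the log2 table's (0.851%). At 4 h the counts for YK-S minus DMSO were 27 (17.2% of all probes) and 17 (9.01%). With median scaling the 4 h medians of YK-S minus DMSO were 1.333 for members and 0.42 for all probes. U2AF1L4, a short relative of U2AF1, had the lowest p there with the signal table's names (difference 0.98, SE 0.26, adjusted p = 0.12). With the log2 table's names it was SNRPN, as above, followed by SNRPA at -0.56 (adjusted p = 0.15). For YK-R minus DMSO at 8 h the counts were 0 (0.229% of all probes) and 3 (1.13%). YK-S minus YK-R gave 1 (0.943%) and 5 (2.38%) at 8 h. At 4 h it gave 4 (4.09%) and 12 (11.3%). The median half-width of the 95% intervals was 0.48 with the signal table's values, wider than in TMD8, and 0.33 with the log2 table's.

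Between the times, the calls in U2932 again differed by table. With the signal table's names, 0 of 100 members were called in YK-S, YK-R or DMSO cells for 8 h minus 4 h, beside 0% of all probes each. The counts at an unadjusted p under 0.05 were 17 in YK-S cells (10.8% of all probes), 20 in YK-R cells (12.4%) and 22 in DMSO cells (13.7%). With the log2 table's names limma called 7 members in YK-S cells (2.71% of all probes, 1.28% higher and 1.43% lower), 11 in YK-R cells (4.09%, 2.48% higher and 1.6% lower) and 0 in DMSO cells (0.809%, 0.313% higher and 0.496% lower). The DMSO count at an unadjusted p under 0.05 was 19 (10.2% of all probes). Of the 7 in YK-S cells 2 were higher and 5 lower at 8 h, and of the 11 in YK-R cells 8 were higher and 3 lower. The signs differed less than the calls. Of 100 members, 86 had the same sign under both in YK-S cells, 66 in YK-R cells and 70 in DMSO cells. With the signal table's names SRSF6 differed by -1.07 in YK-S cells (limma adjusted p = 0.15) and by -1.04 in YK-R cells (adjusted p = 0.12). HNRNPC probe ILMN_1695588 differed by 1.02 and 0.99, and SNRPB probe ILMN_1774661 by -0.96 in YK-S cells, none called.

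HNRNPU, a nuclear scaffold protein, fell in both compounds with the log2 table's names. Its probe ILMN_1743677 read 7.49, 7.31 and 7.63 at 8 h with YK-S, against 8.06, 8.06 and 8.11 at 4 h (difference -0.6, SE 0.11, adjusted p = 0.0088). With YK-R it read 7.17, 7.67 and 7.47 at 8 h, against 8.18, 8.33 and 8.05 at 4 h (difference -0.75, SE 0.11, adjusted p = 0.0018). DMSO cells, where no member was called, also read lower at 8 h on this probe. Their values were 7.57, 7.57 and 7.53 at 8 h, against 7.93, 7.92 and 7.95 at 4 h. HNRNPC, which packages nascent RNA, rose on probe ILMN_1695588 by 0.87 in YK-S cells and by 0.84 in YK-R cells. In DMSO cells it differed by 0.78 (adjusted p = 0.095, not called). Its other probe, ILMN_2334587, fell by 0.71 in YK-S cells, so the probes of this gene were called in opposite directions. In YK-S cells both HNRNPC calls were lost in most alternative fits.

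In YK-S cells SRSF6, an SR protein, read 11.26, 10.8 and 11.1 at 8 h, against 12.05, 12.26 and 12.14 at 4 h. It fell by 1.1 (SE 0.22, adjusted p = 0.014). SNRPB, the SmB gene whose promoter is printed above, fell by 1.04 on probe ILMN_1774661 (SE 0.24, adjusted p = 0.028). Its YK-S values were 11.01, 10.65 and 10.99 at 8 h, against 11.88, 11.97 and 11.93 at 4 h. The SNRPB call was lost in most alternative fits. SNRPG, a further Sm ring protein, fell by 0.62 (adjusted p = 0.046), and HNRNPM probe ILMN_3192791 rose by 0.43 (adjusted p = 0.046), but both calls were lost in each of the 8 alternative fits. In DMSO cells, with no call, the differences were -0.66 for SNRPG (adjusted p = 0.066), -0.66 for SRSF6 (adjusted p = 0.22), -0.39 for SNRPB and 0.14 for HNRNPM on the same probes. Leaving out 1 array of these groups gave 1 to 3 calls, with HNRNPU among them each time. Of the YK-S arrays, 2 at 4 h and 1 at 8 h were dim, so too few are left at 4 h for a count without them.

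In YK-R cells the largest rises beside HNRNPC were SNRPD3 at 0.82 (adjusted p = 0.043), HNRNPM probe ILMN_3192791 at 0.75 (adjusted p = 0.0017) and SNRPN at 0.74 (adjusted p = 0.0068). Over the alternative fits SNRPD3 ran from 0.43 to 1.2 and was not always called. A second HNRNPM probe, ILMN_1745385, rose by 0.54, SNRPF by 0.49, SF3B2 by 0.4 and HNRNPAB by 0.39. Of these, SNRPF and HNRNPAB lost their calls in most alternative fits, and the other probes lost theirs in some. U2AF2 fell by 0.64 on probe ILMN_1768930 (adjusted p = 0.0018) and HNRNPCL3 by 0.74 (adjusted p = 0.026). HNRNPCL3 belongs to a group of near-identical HNRNPC copies, so its signal is uncertain. SNRPN, U2AF2, HNRNPM and SF3B2 have opposite signs in YK-R minus DMSO at 4 h and in YK-R at 8 h minus 4 h, but both comparisons share the YK-R arrays at 4 h. Here too 2 YK-R arrays at 4 h and 1 at 8 h were dim, and no count without them is given.

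**Figure D3:**
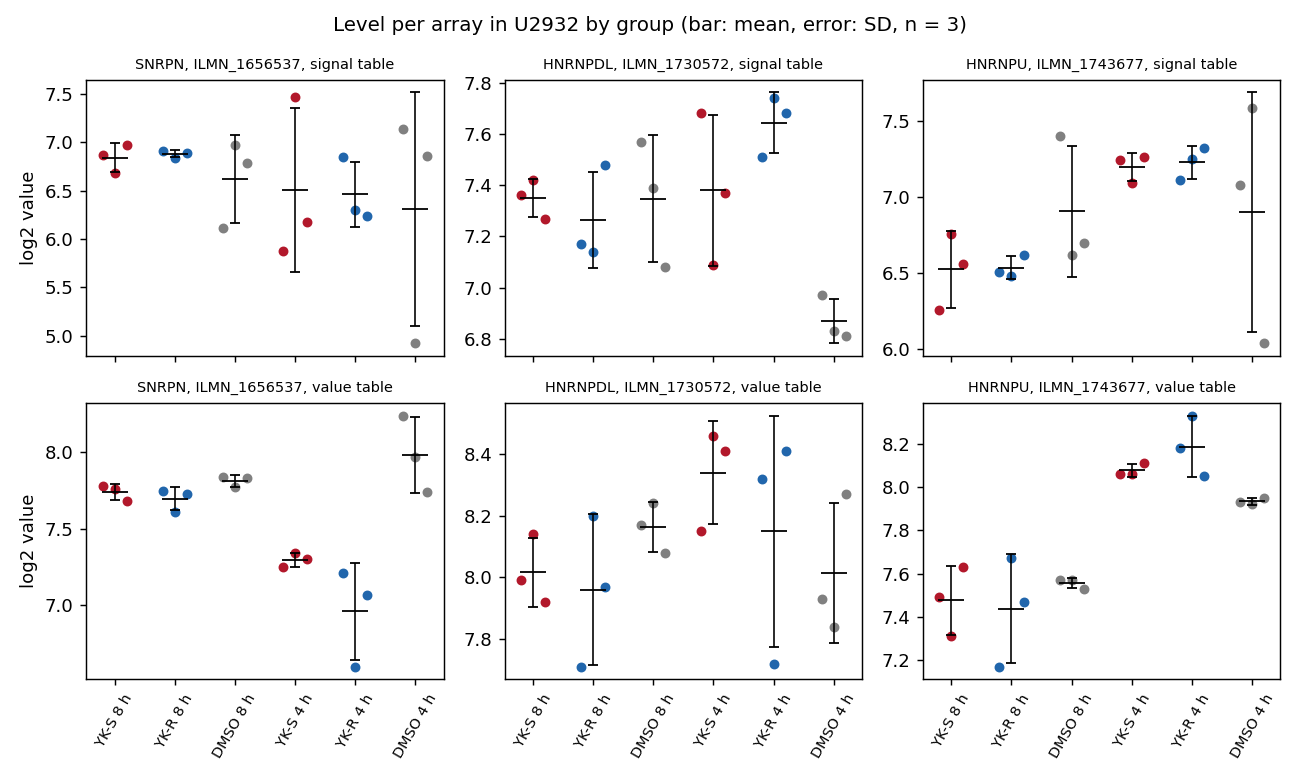
Level of SNRPN, HNRNPDL and HNRNPU per array in the 6 U2932 groups, with the signal table's values and names (top) and the log2 value table's (bottom), in log2 units. Points are arrays, bars means and error bars SD (n = 3). In the top row HNRNPDL reads 7.51 to 7.74 in YK-R at 4 h, above DMSO at 4 h. In the bottom row SNRPN in YK-S and YK-R at 4 h lies below DMSO at 4 h.

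The lines differed in 61 members. Set as TMD8 minus U2932 over all 30 arrays, these 61 of 102 members were called in limma, 16 higher and 45 lower in TMD8, beside 48.9% of all probes called (26.9% higher, 21.9% lower). The members' median was -0.14, beside -0.006 for all probes. At least a 2-fold called difference was found for 4 members higher (6.83% of all probes) and 14 lower (5.44% of all probes). TMD8 and U2932 arrays did not overlap for 20 members, 4 higher and 16 lower, beside 11.5% of all probes (7.27% higher, 4.19% lower). Each of these counts of lower members includes SNRPN probes ILMN_2372082 and ILMN_1693341, detected on 0 TMD8 arrays. The 16 called higher include HNRNPH3 probe ILMN_2341645, detected on 2 of 18 U2932 arrays. Their differences were built into the filter and are not tested. The shares of all probes include such probes too. The line and any array batch cannot be told apart. U2932 included DMSO arrays and TMD8 none. With the compound-treated arrays alone, by the signal table's names, 66 members were called, and without the dim arrays 69 (22 higher, 47 lower). These counts are given without a share of all probes and are not read as a result about splicing factors. The members' median was -0.181 with the compound-treated arrays alone (all probes 0.016) and -0.191 without the dim arrays (all probes -0.011). With arrays scaled to their medians instead of quantiles the split turned over. It became 78 higher and 4 lower of 82 called, beside 53.6% and 13.8% of all probes. The median of all probes then moved to 0.436 and that of members to 1.063. In whole-culture RNA, fewer expressing cells and less RNA per cell cannot be told apart.

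SNRPN had the largest difference among members detected in both lines, on its probe ILMN_1656537. Another of its probes, ILMN_2372082, was detected on 0 of 12 TMD8 arrays and 18 of 18 U2932 arrays, so the level in TMD8 is only a bound. Values in TMD8 had a low of 4.15, a median of 4.21 and a high of 4.27, against 6.39, 8.19 and 8.58 in U2932. On the main scale the level was at least 11.7-fold lower in TMD8. This bound rests on the processing, as the log2 difference ran from -4.71 to -2.08 over 9 alternatives. Probe ILMN_1693341, also detected on 0 of 12 and 18 of 18 arrays, was at least 5.23-fold lower on that scale (4.15, 4.24 and 4.37 in TMD8, against 5.15, 6.98 and 7.54 in U2932). Its log2 difference ran from -3.37 to -1.24 over the alternatives. Both of these probes passed the filter only through U2932, so a difference was built into their selection and is not tested. The third probe, ILMN_1656537, was detected on all arrays of both lines and had a low of 4.89, a median of 5.39 and a high of 5.68 in TMD8, against 5.37, 7.62 and 8.27 in U2932. It was 3.97-fold lower in TMD8 (-1.99, SE 0.19, adjusted p = 3.6e-11), and 1 dim U2932 array reached down into the TMD8 range. A further probe, ILMN_1662019, was above background on 0 of 12 TMD8 and 1 of 18 U2932 arrays and is no member.

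The SNRPN level was then set out by treatment group. On probe ILMN_2372082 and the scale of all 30 arrays, the 4 TMD8 groups had means of 4.19 to 4.25 (SD 0.02 to 0.05). With the signal table's names the U2932 groups had means of 8.39 ± 0.09 with YK-S, 8.28 ± 0.3 with YK-R and 7.37 ± 0.85 with DMSO at 4 h (SD, n = 3 each). At 8 h the means were 7.99 ± 0.32 with YK-S, 8.08 ± 0.28 with YK-R and 8.25 ± 0.19 with DMSO. At 4 h the DMSO arrays (7.97, 6.39 and 7.73) lay below those of YK-S (8.33, 8.36 and 8.5) and, by a narrow margin, of YK-R (8.58, 8.27 and 7.98). All 3 of these DMSO arrays were dim, as were all 3 of YK-R and 1 of YK-S, and the part of brightness was not tested. In the fit within the line the differences were 0.98 for YK-S minus DMSO (SE 0.29, limma adjusted p = 0.15) and 0.87 for YK-R minus DMSO (SE 0.29, adjusted p = 0.11), neither called. The order was another with the log2 table's values and names. There the means at 4 h were 8.22 ± 0.21 with YK-S, 7.85 ± 0.76 with YK-R and 8.27 ± 0.25 with DMSO, and at 8 h 8.08 ± 0.31, 8.09 ± 0.23 and 8.01 ± 0.16 in the same order of treatments (SD, n = 3 each). No pair of groups was called on this probe under either set of names.

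The gene lies at chr15:24823637-24978723 in GRCh38.p14, in the imprinted region of that chromosome, where it is normally read from the paternal copy. Its windows of 300 bases held from 2 to 18 CG pairs, the letters at which DNA methylation sits, against a median of 14 in all windows. The window with the most CG pairs, chr15:24954737-24955036 on the plus strand, is printed for the member with the largest difference, with CG in capitals. Methylation was not measured here.
SNRPN: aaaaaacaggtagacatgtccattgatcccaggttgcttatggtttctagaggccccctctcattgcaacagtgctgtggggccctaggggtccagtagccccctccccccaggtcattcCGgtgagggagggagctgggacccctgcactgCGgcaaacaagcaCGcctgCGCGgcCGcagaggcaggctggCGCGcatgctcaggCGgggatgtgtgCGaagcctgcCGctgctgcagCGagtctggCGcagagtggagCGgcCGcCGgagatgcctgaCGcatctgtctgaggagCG

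**Figure D4:**
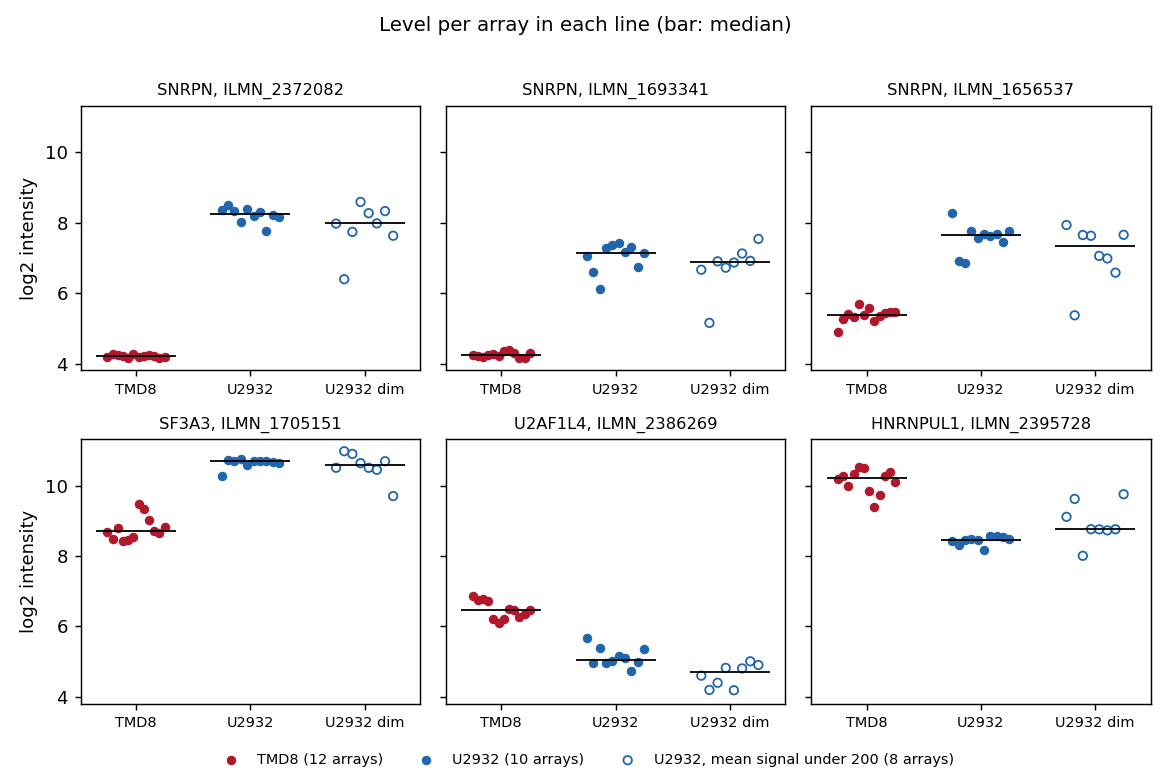
Level per array, in log2 intensity, in TMD8 (red), U2932 (filled blue) and the 8 U2932 arrays with a mean signal under 200 (open blue), for the 3 SNRPN probes, SF3A3, U2AF1L4 and HNRNPUL1. Bars are medians. The first 2 SNRPN probes lie at the floor in TMD8, between 4.15 and 4.37, and SF3A3 does not overlap between the lines.

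Next in size were a branch-point protein and several hnRNPs. SF3A3, the SF3A subunit that contacts the U2 RNA (chr1:37956975-37990022), had a low of 8.41, a median of 8.7 and a high of 9.46 in TMD8, against 9.7, 10.68 and 10.97 in U2932. The lines did not overlap and the difference was -1.81 (SE 0.11, adjusted p = 7.4e-16). HNRNPA3, a relative of HNRNPA1, differed by -1.75, with 7.43 to 8.3 in TMD8 and 8.67 to 10.01 in U2932. HNRNPA1 differed by -1.71 on probe ILMN_1815882 and by -0.72 on its other probe. HNRNPAB, which binds single-stranded nucleic acid, differed by -1.69, -0.68 and -0.59 on its 3 probes. SRSF8 differed by -1.38, with 6.65 to 7.39 in TMD8 and 7.61 to 8.77 in U2932. With median scaling SRSF8 turned to 0.1 (all probes 0.436). The others of these 5 genes were not called on the probe with the largest difference. These probes stood at -0.45 (HNRNPA1), -0.31 (SF3A3), -0.23 (HNRNPA3) and -0.16 (HNRNPAB). The further probes of HNRNPA1 and HNRNPAB are not given under median scaling. SNRPN probe ILMN_1656537, detected in both lines, was called under all 9 alternatives, between -2.55 and -1.06.

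Higher in TMD8 were U2AF1L4, U2AF2 and some hnRNPs. U2AF1L4, at chr19:35742464-35745418, read 6.1 to 6.88 in TMD8 and 4.19 to 5.68 in U2932 on probe ILMN_2386269. Its difference was 1.57 (SE 0.12, adjusted p = 6.7e-13) there and 1.13 (SE 0.16, adjusted p = 2.9e-07) on its second probe. Probe ILMN_2386269 was detected on only 9 of 18 U2932 arrays, so part of its U2932 values lay near background. HNRNPUL1 differed by 1.46 on probe ILMN_2395728 (SE 0.15, adjusted p = 1.8e-10), and by 0.64, 0.34 and 0.23 on the others, the last not called. The probe at 0.64, ILMN_3180966, was detected on 8 of 18 U2932 arrays. U2AF2 differed by 1.1 and 0.22 on its 2 probes, both called. HNRNPLL, which directs splicing of CD45 in lymphocytes, read 7.55 to 8.28 in TMD8 and 6.82 to 7.47 in U2932. Its lines did not overlap and the difference was 0.75 (SE 0.08, adjusted p = 9.6e-10). HNRNPH3 differed by 0.7 and 0.6 on 2 of its 3 probes. The last HNRNPH3 probe, at 0.41, was detected on 2 of 18 U2932 arrays and passed the filter only through TMD8. Its difference was thus built into the selection and is not tested. The 8 probes with the largest positive difference, all of these genes, were called under all 9 alternatives.

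Family counts are read against 26.9% of all probes higher and 21.9% lower, and under median scaling against 53.6% higher and 13.8% lower. SR proteins had 9 of 14 probes lower and 0 higher in TMD8, with a median of -0.51, but 10 higher and 0 lower under median scaling. The hnRNPs had 20 of 51 lower and 9 higher, with a median of -0.13, but 41 higher and 0 lower under median scaling. The SF3A and SF3B probes had 4 of 12 lower and 2 higher, against 1 lower and 9 higher under median scaling. The snRNP probes had 10 of 19 lower and 1 higher, with 3 of the 10 being SNRPN, against 3 lower and 12 higher under median scaling. Of the SNRPN probes, ILMN_2372082 and ILMN_1693341 passed the filter only through U2932. Among the hnRNPs, HNRNPH3 probe ILMN_2341645 passed it only through TMD8. The U2AF probes had 2 of 6 lower and 4 higher, and all 6 were higher under median scaling, the 2 that turned being those of U2AF1. SNRPD1 was the snRNP probe higher in TMD8 (0.42, SE 0.08). The core genes SRSF1 (-0.48), SRSF2 (-0.29) and SNRPB (-1.01 and -0.48) were called lower, and SRSF3, SRSF7 and HNRNPA2B1 were not called on any probe. SF3B1 was higher on 2 of its 3 probes (0.38 and 0.25) and stood at -0.05 on the other.

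**Figure D5:**
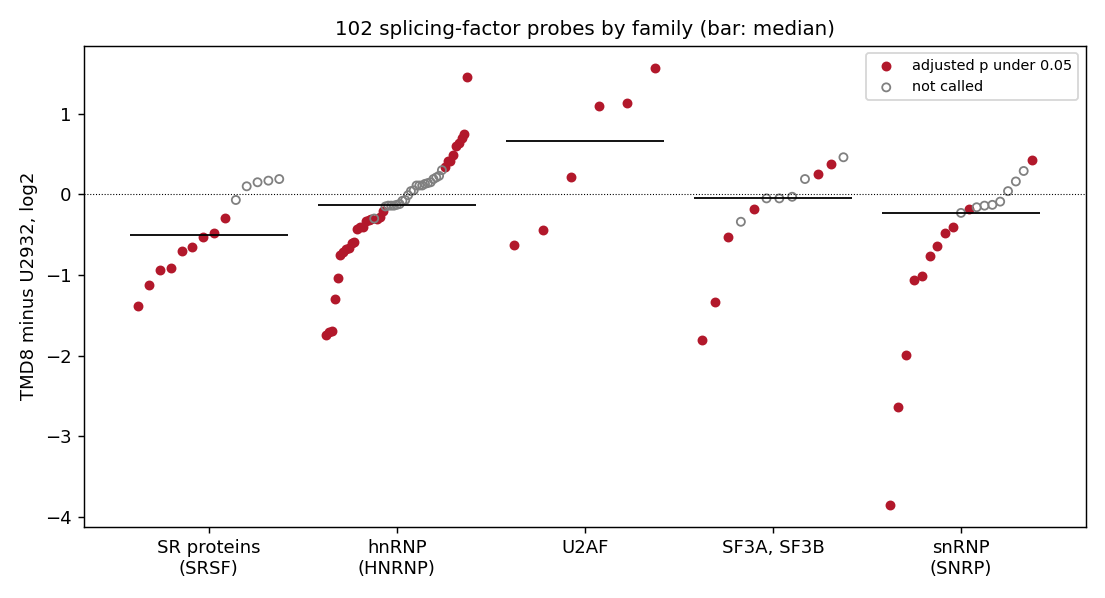
TMD8 minus U2932, in log2 units (y axis), for 102 splicing-factor probes by family (x axis), over 12 and 18 arrays. Filled points passed an adjusted p under 0.05, open points did not, and bars are family medians. The 9 called SR protein probes lie below 0, whereas median scaling gave 10 called and all above 0, and the 3 SNRPN probes are the lowest points.

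Of 29 genes with several detected probes, 2 were called in both directions between the lines, HNRNPK and HNRNPU. In 4 genes the probes differed by over 1 on the log2 scale, namely SNRPN, HNRNPC, HNRNPUL1 and HNRNPAB. Probes of 1 gene can lie on different transcripts, and probe positions were not used here. The members' SD over arrays had a median of 0.21 in TMD8, where HNRNPH1 varied most (0.62), and of 0.31 in U2932, where SF3A2 varied most (0.75). In U2932, 0 of 100 members had dim and bright arrays that did not overlap, beside 0.149% of all probes. The median absolute difference between dim and bright arrays was 0.21 for members and 0.16 for all probes. Dim minus bright reached -0.96 for HNRNPC probe ILMN_1695588, which was called higher at 8 h above. It was 0.72 for SNRPB probe ILMN_1774661, 0.67 for SRSF6, 0.64 for SNRPG and 0.52 for HNRNPU probe ILMN_1743677, all called lower at 8 h with the log2 table's names. Under those names the dim arrays were 1 of YK-S and 1 of YK-R at 8 h, and 2 each of YK-S, YK-R and DMSO at 4 h. The part of brightness in these calls was not tested.

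The rest of the splicing machinery was followed in 6 further lists, chosen with earlier results known. In TMD8, YK-S minus YK-R called none of their probes at either time in limma. In U2932, YK-R minus DMSO at 4 h called TIAL1, a U-rich RNA binder, at 1.21 with the signal table's names (adjusted p = 0.037). With the log2 table's names it called the tri-snRNP proteins PRPF3 at -0.54 (adjusted p = 0.025) and DDX23 at -0.38 (adjusted p = 0.043). Between the lines, beside 26.9% of all probes higher and 21.9% lower, U5 and tri-snRNP genes had 5 probes higher and 8 lower of 22, but 16 higher and 2 lower under median scaling (53.6% and 13.8% of all probes). Among them were PRPF31 at 1.57 and PRPF3 at -1.9. The Prp19 and catalytic step genes had 12 higher and 8 lower of 27, against 25 higher and 0 lower under median scaling. Other splicing regulators had 26 higher and 20 lower of 70, against 53 higher and 1 lower under median scaling. Median scaling was applied to these lists after the data were seen. CELF2 is a regulator of alternative exons. Its probes were detected on all 12 TMD8 arrays and on 0 and 2 of 18 U2932 arrays, and so passed the filter only through TMD8. The paralogs PTBP1 and PTBP2, repressors of exons, differed in opposite directions, PTBP1 by -1.43 and PTBP2 by 1.5 and 1.41.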

How the data were processed

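RNA of 30 samples was measured on Illumina bead arrays. The labels number no replicates, so a replicate number here only names an array. The signal table deposited by the authors holds bead summary intensity on a linear scale, read with GenomeStudio per the submitters' processing notes. The second table deposited by the authors fits a log2 scale by its range, and its columns share 1 distribution within each line. How it was normalized is not given in the sources used here. On each array the background was set at the mode of the log2 density, followed by normexp, an offset of 16, quantile normalization within a line and log2. The line comparison was normalized over all 30 arrays. Members and lists were chosen with earlier results of these data known.

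Probes kept were those detected on at least 3 arrays of a line (28759 in TMD8, 26193 in U2932). Of the probes, 30113 carried a single gene symbol in the platform annotation (30074 of them found in RefSeq), 8 carried more than 1, and 17110 are unnamed here. Models with a mean per group were fitted per line with limma (version 3.58.1, under R 4.3.3), leaving 8 residual degrees of freedom in TMD8, 12 in U2932 and 28 between lines. Tests were two-sided, with Benjamini-Hochberg adjustment over all kept probes, and were tested on simulated data. A probe is called at an adjusted p under 0.05. The number of arrays limits the precision. Alternatives covered the background correction, scaling, filter, array weights, arrays left out and the table of values and names, and those that take values and names apart were chosen after seeing the data.

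Named were 14 fixed genes where a value bears on the result, every called member (up to 10 each way), the 5 lowest p where fewer than 5 were called, and 8 each way between lines. HNRNPA1L2, HNRNPCL1, HNRNPCL2 and HNRNPCL3 have near-identical copies, so their signals are uncertain. A bound of fold is the brighter line's mean against, per array, the lowest signal called above background or the probe's own, whichever is higher.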

Additional observations from a re-analysis of the deposited data

How the results depend on the processing

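The 5 comparisons within TMD8 had 0 called members under every alternative run, each array left out in turn included, while the count over all probes for YK-S minus YK-R at 8 h was 1 to 421 (421 without YK-R replicate 2). In U2932 with the signal table's names, YK-R minus DMSO at 4 h had 2 calls. It had 4 with the log2 table's values and names, 1 with the signal values and the log2 table's names, and 22 with all 30 arrays in one fit. It had 1 without the filter and 46 with array weights. Without background correction, with plain normexp, with median scaling, or with the log2 values and the signal table's names it had 0. Leaving out 1 array gave 0 to 31, the highest without DMSO replicate 3, beside 0 to 6884 of all 26193 probes. YK-S minus DMSO at 4 h, with 0 calls, had 5 in the 30-array fit and 62 with array weights. On leaving out 1 array it had 0 to 24 (24 without DMSO replicate 3, 2 without replicate 1), beside 0 to 4051 of all probes. YK-S minus YK-R at 4 h had 2 with array weights. For 8 h minus 4 h, YK-S cells had 7 (log2 table), 4 (signal values with its names), 3 (30 arrays) and 26 (weights). YK-R cells had 11, 6, 7 and 19, and 76, all higher, with median scaling. DMSO cells had 6 (30 arrays), 51 (weights) and 73, all higher, with median scaling. On leaving out 1 array they had 0 to 7 (7 without DMSO at 4 h replicate 3), beside 0 to 1070 of all probes. The median over all probes moved to 0.767 in YK-R cells and 0.58 in DMSO cells with median scaling, the members' to 1.733 and 1.895. With the log2 table's names the counts of 4, 7 and 11 became 16, 12 and 22 without dim arrays and 1, 4 and 6 with signal values. Leaving out 1 array gave 0 to 6 (0 without DMSO replicate 1), 1 to 3 and 6 to 12. These fits, and those that took values and names apart, were chosen after seeing the data. The estimation of array weights stopped before convergence for the 18 U2932 arrays, so each U2932 count with weights rests on weights that are not final. The causes were not tested. A member count with no count over all probes beside it is not read as a result about splicing factors. Between lines the count was 60 to 82 over 9 alternatives, and SRSF8 was reversed to 0.1 with median scaling. No paired analysis was possible because the labels give no replicate numbers. A fit without dim arrays could not be made where DMSO or YK-R at 4 h enters with the signal table's names. Background limits what can be said of SF3A1, HNRNPCL1 and the SNRPN probes in TMD8. In U2932 it limits U2AF1L4 probe ILMN_2386269 and HNRNPUL1 probe ILMN_3180966 in the same way.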
